A study of Mus musculus with 8 samples.

Results

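The TGF-beta and activin signaling genes described here are 9 rows of the deposited expression table, chosen by gene symbol out of 20943: the ligand genes Tgfb1, Tgfb2 and Tgfb3, the activin subunit genes Inhba and Inhbb, the receptor genes Tgfbr1, Tgfbr2 and Tgfbr3, and Fst, the gene for follistatin. All 9 were in the table, none was at 0 in any tumor, and all entered the test.

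As background, TGF-beta ligands are secreted in a latent form and, once released, bind the type II receptor encoded by Tgfbr2, which recruits and phosphorylates the type I receptor encoded by Tgfbr1, and that receptor phosphorylates the transcription factors Smad2 and Smad3. Activin A is a dimer of the Inhba product and activin B a dimer of the Inhbb product; they act through their own receptors on the same Smads, and follistatin binds and neutralises both. In peripheral nerve, TGF-beta signaling is known to act on Schwann cells during development and after injury.

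The samples were 8 malignant peripheral nerve sheath tumors of mice, cancers that arise in the Schwann cell lineage of nerves, profiled by poly-A RNA sequencing of homogenized tumors. The 3 PRC2 loss tumors had the genotype Plp-CreERT with floxed Nf1, Cdkn2a and Eed, and the 5 PRC2 wildtype tumors had Plp-CreERT with floxed Nf1 and Cdkn2a, and the labels give both groups as Nf1-/- and Cdkn2a-/- and the PRC2 loss tumors as Eed-/- besides. Nf1 is a brake on Ras, and Cdkn2a is the locus of p16INK4a and p19ARF. Polycomb repressive complex 2 (PRC2), which methylates histone H3, needs the Eed protein as one of its core parts. All mice were given 0.4 mg tamoxifen, timed from postnatal day 0 to 3, which activates the recombinase under the Plp promoter chiefly in Schwann lineage cells, so other cells of the tumor are not its intended target. The labels give no age or sex, and name a nerve for the PRC2 loss tumors alone (right paraspinal for tumor 1, left and right sciatic for tumors 2 and 3), so site and group cannot be told apart. Animal codes are shared by wildtype tumors 1 and 2, by wildtype tumors 3 and 4, and by PRC2 loss tumors 2 and 3, leaving 3 wildtype and 2 PRC2 loss codes. If a code marks a mouse, the p-values below count tumors of the same mouse as if they were separate mice, and are smaller than they should be.

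Values are quantile-normalized log2 gene counts, hereafter log2 values, with unknown sequencing depth. Eed, the targeted gene, was lower in every PRC2 loss tumor (8.76 to 8.96) than in every wildtype tumor (10.17 to 10.33). Some libraries stood apart in other ways. The summed level of 6 skeletal muscle markers was at least 15.64 (log2) in wildtype tumors 1 and 2, against 7.44 to 8.62 in the other wildtype tumors and 6.77 to 12.23 in PRC2 loss. Y-linked Ddx3y was at 12.09 in PRC2 loss tumor 1 and 12.11 in wildtype tumor 5 and at most 3.05 in the others, so each group held 1 male tumor. Schwann cell markers were present in all tumors, but 6 of 7 rose in PRC2 loss, with a summed level of 16.65 to 17.33 against 10.20 to 14.47 in wildtype. Among all genes, 7424 of the 20807 tested genes differed between the groups (35.7%; limma adjusted p below 0.05), 3337 of them higher in PRC2 loss (16%) and 4087 lower (19.6%).

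Among the 9 members 4 passed this test. Inhbb, Tgfbr2 and Tgfbr3 rose in PRC2 loss and Inhba fell, while Tgfb1, Tgfb2, Tgfb3, Tgfbr1 and Fst did not pass. A share of 4 in 9 is near the 35.7% of all genes, so the count does not set these genes apart. The median log2 difference was -0.37 over the members and -0.12 over all genes tested. In bulk tissue, fewer cells of a type and less RNA per cell cannot be told apart.

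**Figure D1:**
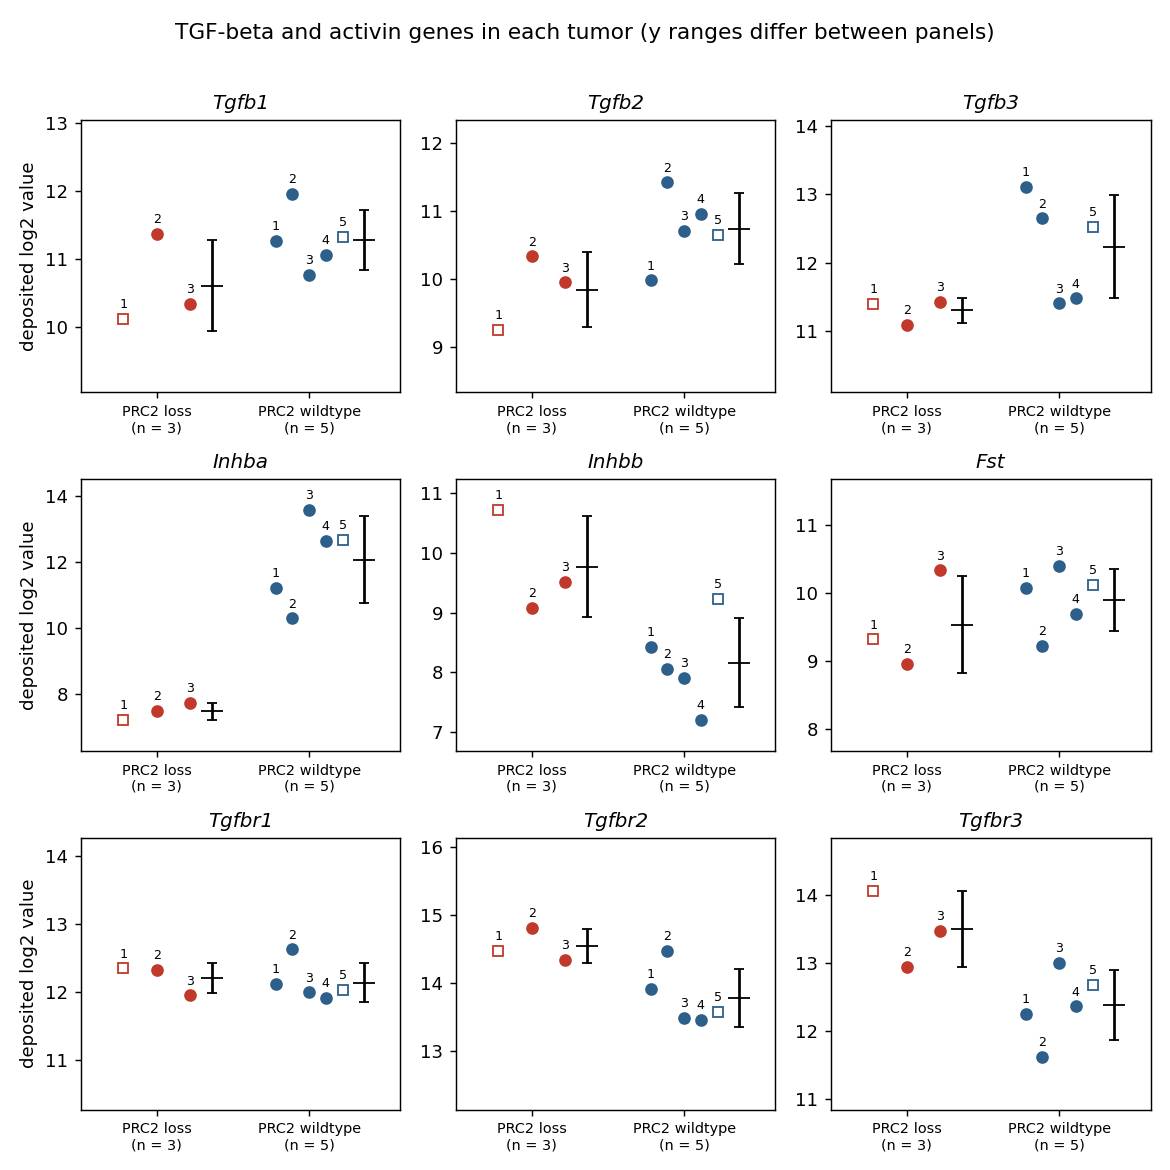
Deposited log2 value of each member in each tumor, PRC2 loss (n = 3) left and PRC2 wildtype (n = 5) right; numbers are replicate numbers, open squares the 2 male tumors, and bars the mean ± SD. The groups do not overlap for Inhba alone, with 7.23 to 7.74 in PRC2 loss and 10.30 to 13.58 in wildtype.

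Inhba, which encodes the subunit of activin A, was the member with the largest difference. Its log2 value was 7.23, 7.49 and 7.74 in PRC2 loss tumors 1 to 3, against 11.21, 10.30, 13.58, 12.65 and 12.67 in wildtype tumors 1 to 5. Every PRC2 loss tumor lay below every wildtype tumor, and no other member separated the groups in this way; 38.3% of all genes did, 16.9% with PRC2 loss higher and 21.4% with PRC2 loss lower. The PRC2 loss mean was 7.49 ± 0.26 (SD, n = 3) and the wildtype mean 12.08 ± 1.31 (SD, n = 5), a log2 difference of -4.59 (SE 0.67) or 24.2-fold lower, with limma adjusted p = 0.00165. By exact permutation of the tumors (56 splits, two-sided) p was 0.0179, which is as low as 3 against 5 tumors can reach. By size of difference Inhba ranked 479 among the 20807 genes.

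The spread of Inhba was wider among wildtype than among PRC2 loss tumors. The lowest wildtype values were those of tumors 1 and 2, which share the code PNC8, carried the skeletal muscle signal and had the highest Schwann marker sums of the wildtype group; the part of these in the Inhba level was not tested. Without both tumors the difference was -5.48 and still passed (limma adjusted p = 0.000199). Leaving out PRC2 loss tumors 2 and 3 together, which leaves 1 PRC2 loss tumor assumed to vary like the wildtype tumors, gave -4.85 (limma adjusted p = 0.0636), the only one of 25 alternatives in which Inhba missed the threshold.

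Inhbb, which encodes the subunit of activin B, moved the other way. It stood at 10.72, 9.08 and 9.52 in PRC2 loss tumors 1 to 3, against 8.43, 8.05, 7.90, 7.21 and 9.23 in wildtype tumors 1 to 5. The groups overlapped, because wildtype tumor 5 lay above PRC2 loss tumor 2. The means of 9.77 ± 0.85 (SD, n = 3) and 8.17 ± 0.74 (SD, n = 5) gave a log2 difference of 1.61 (SE 0.50), 3.05-fold higher in PRC2 loss (limma adjusted p = 0.0353; two-sided exact permutation p = 0.0536).

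The highest Inhbb value of each group came from its male tumor. The male PRC2 loss tumor had 10.72, against 9.23 in the male wildtype tumor. The 2 female PRC2 loss tumors had 9.08 and 9.52, against 7.21 to 8.43 in the 4 female wildtype tumors. The comparison of male tumors is 1 against 1, and the split by sex was made after the overlap was seen, so it is a description and not support for the difference. With sex as a covariate, also chosen after seeing the data, the log2 difference was 1.43 (SE 0.29; limma adjusted p = 0.00863). The Inhbb call was lost in 13 of 25 alternatives (limma adjusted p from 0.0502 to 0.136 among them), including tumors averaged by animal code (0.125) and the omission of any single tumor other than wildtype tumor 5 or PRC2 loss tumor 2; without PRC2 loss tumor 1 the difference was 1.14 (limma adjusted p = 0.136).

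The sequences upstream of these activin subunit genes are shown as a description. Any link between promoter composition or motifs and the direction of change was not tested. Each is the stretch of 250 bases before the RefSeq start (build GRCm38.p6), 5′ to 3′ on the gene's strand. Capitals mark the motif TATAAA in Inhba, at chr13:16011601-16011850 on the plus strand, and the reverse complement of GGGCGG in Inhbb, at chr1:119422249-119422498 on the minus strand.
Inhba: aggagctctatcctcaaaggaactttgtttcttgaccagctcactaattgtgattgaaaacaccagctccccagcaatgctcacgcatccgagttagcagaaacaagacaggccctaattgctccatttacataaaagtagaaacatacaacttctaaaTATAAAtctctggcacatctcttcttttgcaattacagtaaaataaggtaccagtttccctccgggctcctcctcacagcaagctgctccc
Inhbb: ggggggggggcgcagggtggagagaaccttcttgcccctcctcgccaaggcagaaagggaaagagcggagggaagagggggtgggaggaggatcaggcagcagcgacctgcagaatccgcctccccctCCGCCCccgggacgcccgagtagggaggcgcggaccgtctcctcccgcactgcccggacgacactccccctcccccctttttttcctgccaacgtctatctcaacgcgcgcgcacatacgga

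The window of 300 bases from 250 before to 50 after the start held 7 CpG dinucleotides and 47.7% G and C at Inhba, and 23 CpG dinucleotides and 64.3% G and C at Inhbb. Of 32851 such windows in the RefSeq table, 47.9% had fewer CpG than Inhba and 78.5% fewer than Inhbb. Searched on both strands, the TATA-box motif occurred in 13.6% of all windows and once at Inhba, beginning at position -91 from the start. The GC-box motif, GGGCGG, occurred in 35.7% of windows and once at Inhbb, beginning at position -122. Neither window held TGANTCA, the AP-1 motif (7.81% of windows), or CAGACA, the CAGA box bound by Smads (21.0% of windows).

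Within single tumors, the balance of the activin subunit genes was reversed between the groups. A scaling factor common to a library cancels there, but effects of the quantile normalization, which depend on level, need not. Per length, that is after subtracting the log2 of the exonic length in kilobases (6.39 for Inhba, 4.255 for Inhbb), the Inhba level lay below the Inhbb level by a log2 difference of -4.07, -2.18 and -2.37 in PRC2 loss tumors 1 to 3. In wildtype tumors 1 to 5 Inhba lay above Inhbb by 2.19, 1.66, 5.09, 4.85 and 2.86. All 3 PRC2 loss tumors thus had more Inhbb than Inhba transcript per length and all 5 wildtype tumors the opposite; this pair of genes was set side by side after their values were seen, so no test is given.

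**Figure D2:**
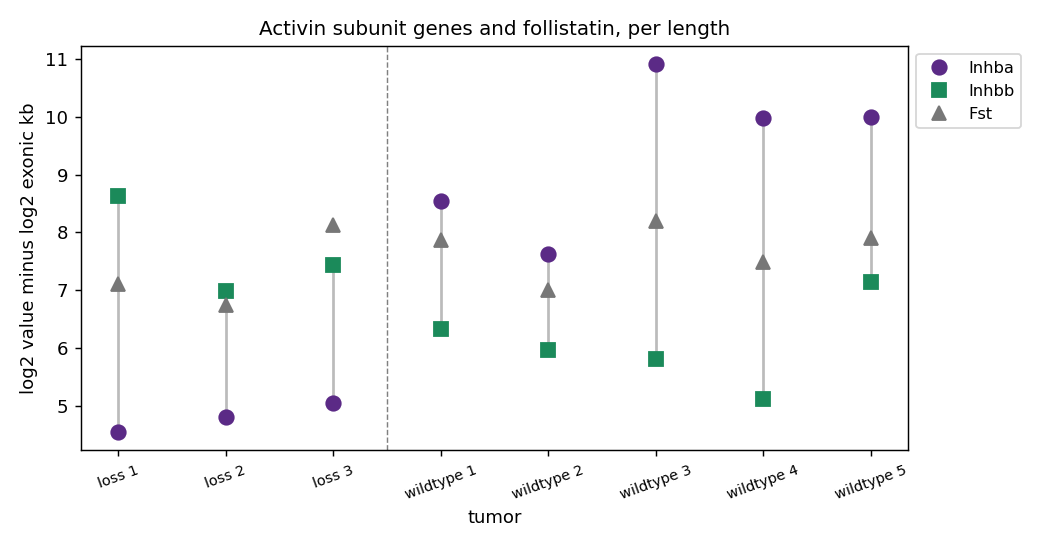
Level per length (log2 value minus log2 of exonic kilobases) of Inhba, Inhbb and Fst in each tumor, PRC2 loss left of the dashed line and wildtype right; grey lines join Inhba and Inhbb. Inhba minus Inhbb is -4.07 to -2.18 in the PRC2 loss tumors and 1.66 to 5.09 in the wildtype tumors.

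Fst, whose product neutralises activins, did not pass the test. Its log2 value was 9.31, 8.95 and 10.33 in PRC2 loss tumors 1 to 3, against 10.07, 9.21, 10.40, 9.69 and 10.11 in wildtype tumors 1 to 5, and the groups overlapped. The difference was -0.37 (SE 0.36), with a 95% interval from -1.18 to 0.45 (limma adjusted p = 0.463; two-sided exact permutation p = 0.375). Relative to Fst within a tumor, Inhba stood at -2.58 to -1.46 in PRC2 loss and at 1.09 to 3.18 in wildtype on the log2 scale, not corrected for length.

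The 3 TGF-beta ligand genes had lower means in PRC2 loss but did not pass the test. Tgfb1, the most widely expressed isoform gene, had 10.13, 11.37 and 10.34 in PRC2 loss tumors 1 to 3, against 11.26, 11.96, 10.77, 11.06 and 11.33 in wildtype tumors 1 to 5. PRC2 loss tumors 1 and 3 lay below all wildtype tumors and tumor 2 lay within them. The log2 difference was -0.67 (SE 0.34; limma adjusted p = 0.158; two-sided exact permutation p = 0.179), and without PRC2 loss tumor 2 it was -1.04 and passed (limma adjusted p = 0.0405).

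Tgfb2, the isoform whose receptor binding depends most on the coreceptor Tgfbr3, had 9.25, 10.33 and 9.95 in PRC2 loss tumors 1 to 3, against 9.97, 11.41, 10.70, 10.95 and 10.64 in wildtype tumors 1 to 5. The groups overlapped through wildtype tumor 1. The difference was -0.90 (SE 0.34; limma adjusted p = 0.0713; two-sided exact permutation p = 0.0714). Without wildtype tumor 1 it was -1.09 and passed (limma adjusted p = 0.0282).

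Tgfb3 split the wildtype tumors by animal code. It had 11.39, 11.08 and 11.42 in PRC2 loss tumors 1 to 3, against 13.11, 12.65, 11.40, 11.47 and 12.52 in wildtype tumors 1 to 5. Wildtype tumors 3 and 4, which share the code PNC9, lay in or just above the PRC2 loss range, and the other wildtype tumors lay well above it. The difference was -0.94 (SE 0.40; limma adjusted p = 0.0993; two-sided exact permutation p = 0.0536). Leaving out wildtype tumor 3 gave -1.14 (limma adjusted p = 0.0465), and leaving out both PNC9 tumors gave -1.47 (limma adjusted p = 0.00649).

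Macrophages are, as background, a source of TGF-beta 1. Of 8 macrophage markers 5 fell in PRC2 loss and none rose, with a summed level of 14.85 to 15.22 (log2) in PRC2 loss and 15.57 to 16.70 in wildtype. All 7 T and NK cell markers fell, with sums of 8.01 to 9.65 in PRC2 loss and 10.47 to 12.13 in wildtype. For comparison, 19.6% of all genes were called lower. No marker of either list was at 0 in any tumor. Their part in the Tgfb1 values was not tested.

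The receptor genes differed from one another. Tgfbr1, the type I receptor gene, had 12.35, 12.32 and 11.95 in PRC2 loss tumors 1 to 3, against 12.12, 12.63, 11.99, 11.91 and 12.03 in wildtype tumors 1 to 5. All PRC2 loss values lay within the wildtype range. The difference was 0.067 (SE 0.18), with a 95% interval from -0.35 to 0.49 (limma adjusted p = 0.792), but centring on housekeeping genes gave 0.69, which passed (limma adjusted p = 0.0385).

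Tgfbr2, the type II receptor gene, had 14.48, 14.82 and 14.34 in PRC2 loss tumors 1 to 3, against 13.92, 14.48, 13.49, 13.46 and 13.58 in wildtype tumors 1 to 5. Wildtype tumor 2 reached the PRC2 loss range and the other wildtype tumors lay below it. The log2 difference was 0.76 (SE 0.26), or 1.69-fold higher in PRC2 loss, close to the threshold (limma adjusted p = 0.0486; two-sided exact permutation p = 0.0714). This call was lost in 18 of 25 alternatives, including a pseudocount of 1 (limma adjusted p = 0.0504) and the omission of any single tumor other than wildtype tumor 2 (0.0700 to 0.165).

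Tgfbr3 encodes betaglycan, a coreceptor that presents TGF-beta to the type II receptor and, with inhibin, blocks activin receptors. It had 14.07, 12.95 and 13.48 in PRC2 loss tumors 1 to 3, against 12.25, 11.63, 13.00, 12.36 and 12.68 in wildtype tumors 1 to 5. Wildtype tumor 3 lay just above PRC2 loss tumor 2, and the other wildtype tumors lay below all PRC2 loss tumors. The log2 difference was 1.11 (SE 0.34), or 2.16-fold higher in PRC2 loss (limma adjusted p = 0.0336; two-sided exact permutation p = 0.0536). The call was lost in 12 of 25 alternatives (limma adjusted p up to 0.141), among them 4 in which a single tumor was omitted (wildtype 1, wildtype 4, PRC2 loss 1, PRC2 loss 3).

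Set against Tgfbr1 in the same tumor, Tgfbr2 separated the groups. The log2 value of Tgfbr2 exceeded that of Tgfbr1 by 2.13, 2.50 and 2.39 in PRC2 loss tumors 1 to 3, against 1.80, 1.85, 1.50, 1.55 and 1.54 in wildtype tumors 1 to 5. The groups did not overlap and differed by 0.69 on the log2 scale, a change that no single scaling factor per tumor can alter. Effects of the quantile normalization, which depend on level, need not cancel here either. It is 1 of 7 such gene pairs computed, all chosen after the values were seen, and no test is given. Inhba with Inhbb, Inhba with Fst, and Inhbb with Fst separated the groups too. Inhbb minus Fst did so narrowly, with -0.80 in PRC2 loss tumor 3 and -0.88 in wildtype tumor 5. The share of all gene pairs that do so was not computed, while 38.3% of single genes did.

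Endothelial cells, fibroblasts and mural cells are, as background, strong expressors of Tgfbr2 and Tgfbr3. Of 7 endothelial markers 6 rose in PRC2 loss and none fell, with sums of 15.08 to 15.81 in PRC2 loss and 13.07 to 13.84 in wildtype. Of 6 fibroblast markers 2 rose, with sums of 19.14 to 19.67 in PRC2 loss and 18.54 to 19.51 in wildtype, and of 7 mural and smooth muscle markers 2 rose, with sums of 15.45 to 17.71 and 13.60 to 15.58. None of the 6 skeletal muscle markers passed the test. For comparison, 16% of all genes were called higher. The part of these cell types in the receptor values was not tested.

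**Figure D3:**
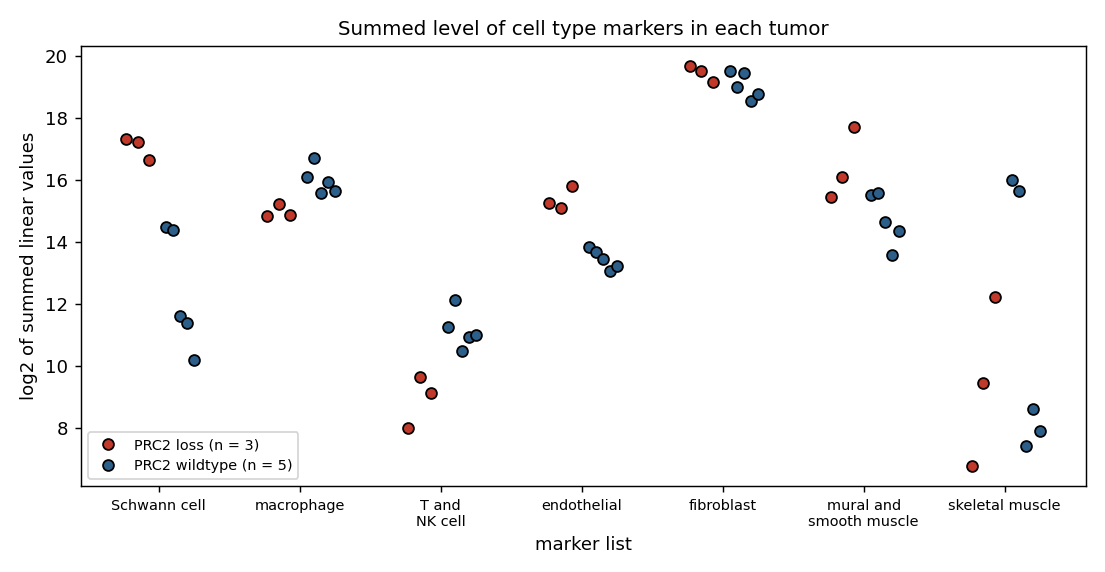
Summed level of each cell type's markers in each tumor (log2 of the sum of linear values), PRC2 loss left and wildtype right within each list. Endothelial sums are 15.08 to 15.81 in PRC2 loss and 13.07 to 13.84 in wildtype, and macrophage sums 14.85 to 15.22 in PRC2 loss and 15.57 to 16.70 in wildtype.

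Scaling shifted all members together. Of 15 housekeeping genes 9 fell in PRC2 loss and none rose on the deposited scale, with a median log2 difference of -0.76. Centring each tumor on their mean raised every difference by 0.62, moved the median of all genes to 0.50, and changed the split of called genes to 7863 higher and 1532 lower. On that scale Inhba was at -3.97 (limma adjusted p = 0.00148) and remained the only member called lower, Inhbb was at 2.23, Tgfbr2 at 1.38, Tgfbr3 at 1.73 and Tgfbr1 at 0.69, all past the threshold, Fst turned to 0.25, and the ligand genes Tgfb1, Tgfb2 and Tgfb3 lay between -0.32 and -0.045. Relative to the median of all genes, which is the same on both scales, Inhba was at -4.47, Tgfb1 at -0.54, Tgfb2 at -0.77, Tgfb3 at -0.81 and Fst at -0.24, whereas Tgfbr1 was at 0.19, Tgfbr2 at 0.89, Tgfbr3 at 1.24 and Inhbb at 1.73.

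**Figure D4:**
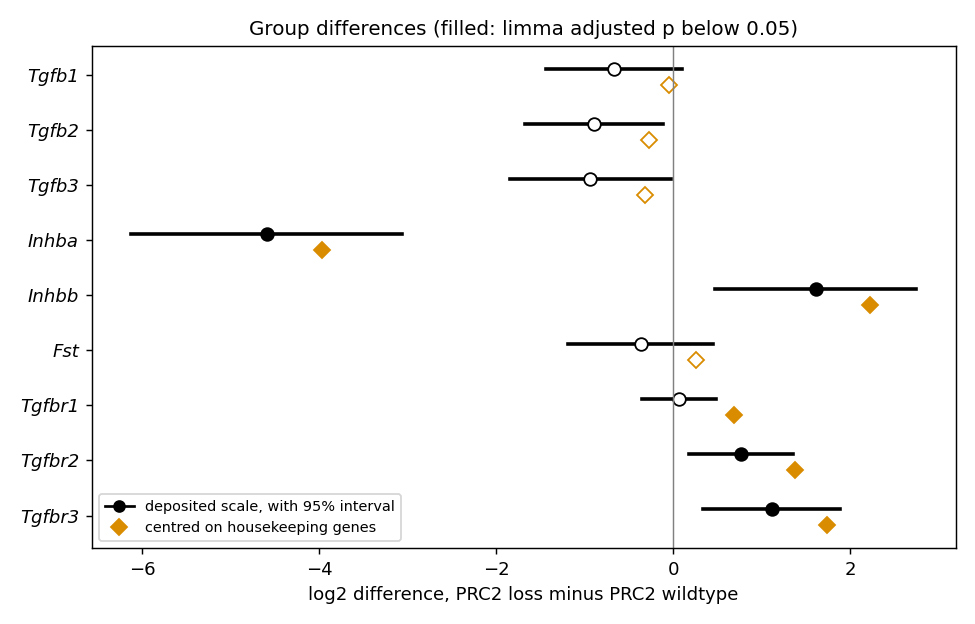
Log2 difference of each member, PRC2 loss minus PRC2 wildtype, on the deposited scale (black, with limma's 95% interval) and with tumors centred on 15 housekeeping genes (orange diamonds); filled symbols passed a limma adjusted p of 0.05. Inhba is at -4.59 and -3.97, far from the others, and Tgfbr1 is filled on the centred scale only.

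The order of levels per length can be set out for all members, as a description. In PRC2 loss the means (log2 value minus log2 of exonic kilobases) ran from Tgfbr2 at 11.51 ± 0.24 and Tgfbr3 at 10.79 ± 0.56 through Tgfb3 at 9.54 ± 0.19, Tgfbr1 at 9.50 ± 0.22, Tgfb1 at 8.28 ± 0.67, Inhbb at 7.69 ± 0.85, Fst at 7.33 ± 0.71 and Tgfb2 at 7.31 ± 0.55 to Inhba at 4.81 ± 0.26 (SD, n = 3). Ranges of neighbours overlapped except between Tgfbr3 and Tgfb3, between Tgfbr1 and Tgfb1, and between Tgfb2 and Inhba. In wildtype the order was Tgfbr2 at 10.75 ± 0.43, Tgfb3 at 10.47 ± 0.76, Tgfbr3 at 9.67 ± 0.52, Tgfbr1 at 9.43 ± 0.28, Inhba at 9.41 ± 1.31, Tgfb1 at 8.94 ± 0.44, Tgfb2 at 8.20 ± 0.52, Fst at 7.70 ± 0.46 and Inhbb at 6.08 ± 0.74 (SD, n = 5), and the ranges of all neighbours overlapped. Tgfbr2 led in both groups, while Inhba was last in PRC2 loss and Inhbb last in wildtype.

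The genes with the most similar profile over the 8 tumors were found by the root mean square difference of values centred on each gene's mean. Predicted genes (Gm or Rik symbols) and some symbols starting with Rp were passed over, so a nearer profile among them is not named. For Inhba they were Tfap2a (0.49) and Rin1 (0.52), for Inhbb Usp53 (0.40) and Spef1 (0.41), for Tgfbr2 Lmo4 (0.10) and Cltb (0.13), and for Tgfbr3 Pkp4 (0.23) and Tcf7l1 (0.26). For Tgfb1 they were P2ry6 (0.22) and Eva1b (0.23), for Tgfb2 Mob3a (0.29) and Orai1 (0.29), for Tgfb3 Il4ra (0.33) and Itgb5 (0.34), for Tgfbr1 Zfp952 (0.10) and Txndc15 (0.10), and for Fst Sik2 (0.19) and Setd6 (0.29). Inhba, the member with the widest range, had the largest distances.

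The rest of the pathway was read from lists of other genes. Among 6 other ligand genes 1 rose and none fell, where 16% of all genes were called higher and 19.6% lower. Inha, which encodes the alpha subunit that pairs with an activin subunit to form inhibin, had 9.77, 9.86 and 10.31 in PRC2 loss tumors 1 to 3, against 7.35, 7.81, 8.55, 8.02 and 8.43 in wildtype tumors 1 to 5. The groups did not overlap, and Inha was 3.86-fold higher in PRC2 loss (limma adjusted p = 0.0019). Gdf11 did not pass (limma adjusted p = 0.172), Mstn, the myostatin gene, was highest in wildtype tumors 1 and 2 (7.43 and 4.66), the tumors with the skeletal muscle signal, and Nodal was listed at 0 in all PRC2 loss tumors and 3 wildtype tumors.

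Of 8 other receptor genes 2 rose and 2 fell, where 16% of all genes were called higher and 19.6% lower. Eng, the endothelial coreceptor endoglin, was 2.56-fold higher in PRC2 loss (12.73 ± 0.29, n = 3, against 11.37 ± 0.44, n = 5, SD; limma adjusted p = 0.00497). Acvr2b, a type II activin receptor, was 2.12-fold higher (9.95 ± 0.39 against 8.86 ± 0.38; limma adjusted p = 0.0137). The Eng call was lost in 2 of 25 alternatives and the Acvr2b call in 3 of 25. Acvr1b, the type I activin receptor ALK4, fell by 0.54 on the log2 scale and Acvr1, a type I receptor of BMPs, by 0.74 (limma adjusted p = 0.0252 and 0.0255), but both calls were lost with housekeeping centring, where Acvr1b stood at 0.084 and Acvr1 at -0.12. The Acvr1b and Acvr1 calls were each lost in 11 of 25 alternatives.

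Of 13 genes for latent storage and activation 1 rose and 2 fell, where 16% of all genes were called higher and 19.6% lower. Itgav, the integrin subunit that releases TGF-beta from its latent complex, was 2.41-fold lower in PRC2 loss (11.75 ± 0.47 against 13.02 ± 0.26; limma adjusted p = 0.00419), and with housekeeping centring the difference was -0.65 and did not pass. Ltbp4, a latent TGF-beta binding protein, was 1.68-fold higher (limma adjusted p = 0.042), and Furin, the protease that cleaves the precursors, was 1.53-fold lower (limma adjusted p = 0.0488), both near the threshold. The Ltbp4 call was lost in 16 of 25 alternatives (limma adjusted p up to 0.267) and the Furin call in 18 of 25 (limma adjusted p up to 0.985). Fbn1, a microfibril gene, did not pass (limma adjusted p = 0.559).

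Of 6 antagonist genes 3 rose and none fell, where 16% of all genes were called higher. Bambi, a pseudoreceptor without a kinase domain, had 9.93, 9.75 and 9.23 in PRC2 loss tumors 1 to 3, against 7.83, 7.93, 7.01, 7.87 and 7.45 in wildtype tumors 1 to 5, and was 4.06-fold higher with no overlap (limma adjusted p = 0.00125). Wfikkn2, whose product binds myostatin and Gdf11, averaged 9.06 ± 0.56 in PRC2 loss (SD, n = 3) against 5.73 ± 0.86 in wildtype (SD, n = 5), a log2 difference of 3.33 (limma adjusted p = 0.0023). Lefty2 was low in both groups (1.63 to 4.44 in PRC2 loss, and 0 in 3 of 5 wildtype tumors). Its call was marginal (limma adjusted p = 0.0494) and was lost in 14 of 24 alternatives, with adjusted p up to 0.603, including omission of PRC2 loss tumor 2 or 3 or of wildtype tumor 1, 3 or 5. Without PRC2 loss tumor 2 or 3 the count of antagonists called higher was 2, and without both it was 1. Fstl3, a relative of follistatin, did not pass (limma adjusted p = 0.822).

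Of 14 Smad and feedback genes 3 rose and 3 fell, where 16% of all genes were called higher and 19.6% lower. Tgif1, a corepressor of Smad2 and Smad3, was 4.58-fold lower in PRC2 loss (9.59 ± 0.23 against 11.79 ± 0.38; limma adjusted p = 0.00041). Skil, a Smad corepressor that is itself a TGF-beta target, was 2.09-fold lower (limma adjusted p = 0.00791), Smurf2, a ubiquitin ligase of the pathway, was 1.56-fold lower (limma adjusted p = 0.00543), and Zfyve9, which anchors Smads at endosomal membranes, was 1.62-fold higher (limma adjusted p = 0.00204). Of 5 Smad genes chosen for mention with their values in view, Smad4 and Smad6 rose, the signal transducers Smad2 and Smad3 did not pass (limma adjusted p = 0.475 and 0.625), nor did the feedback inhibitor Smad7 (0.99). With housekeeping centring Smurf2 stood at -0.022 and Skil at -0.44, and neither passed.

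Of 10 target genes of the pathway 5 fell and 1 rose, with a median log2 difference of -1.02, against -0.12 over all genes and 19.6% of all genes called lower. Fn1, the fibronectin gene, was 5.78-fold lower (13.91 ± 0.97 against 16.44 ± 0.75; limma adjusted p = 0.00774), and Cdkn2b, which encodes p15INK4b, 4.02-fold lower (9.52 ± 1.22 against 11.53 ± 0.37; limma adjusted p = 0.0129). The Cdkn2b call was lost in 4 of 25 alternatives. Tgfbi, an induced extracellular matrix gene, went the other way and was 2.58-fold higher in PRC2 loss (15.42 ± 0.45 against 14.05 ± 0.36; limma adjusted p = 0.00614). The count of 5 lower target genes depended on a few tumors: it was 3 without PRC2 loss tumor 3, 2 without PRC2 loss tumors 2 and 3, and 2 without the male tumors. With housekeeping centring 3 were called lower and 1 higher. These genes also respond to other signals, and what sets their levels was not tested.

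**Figure D5:**
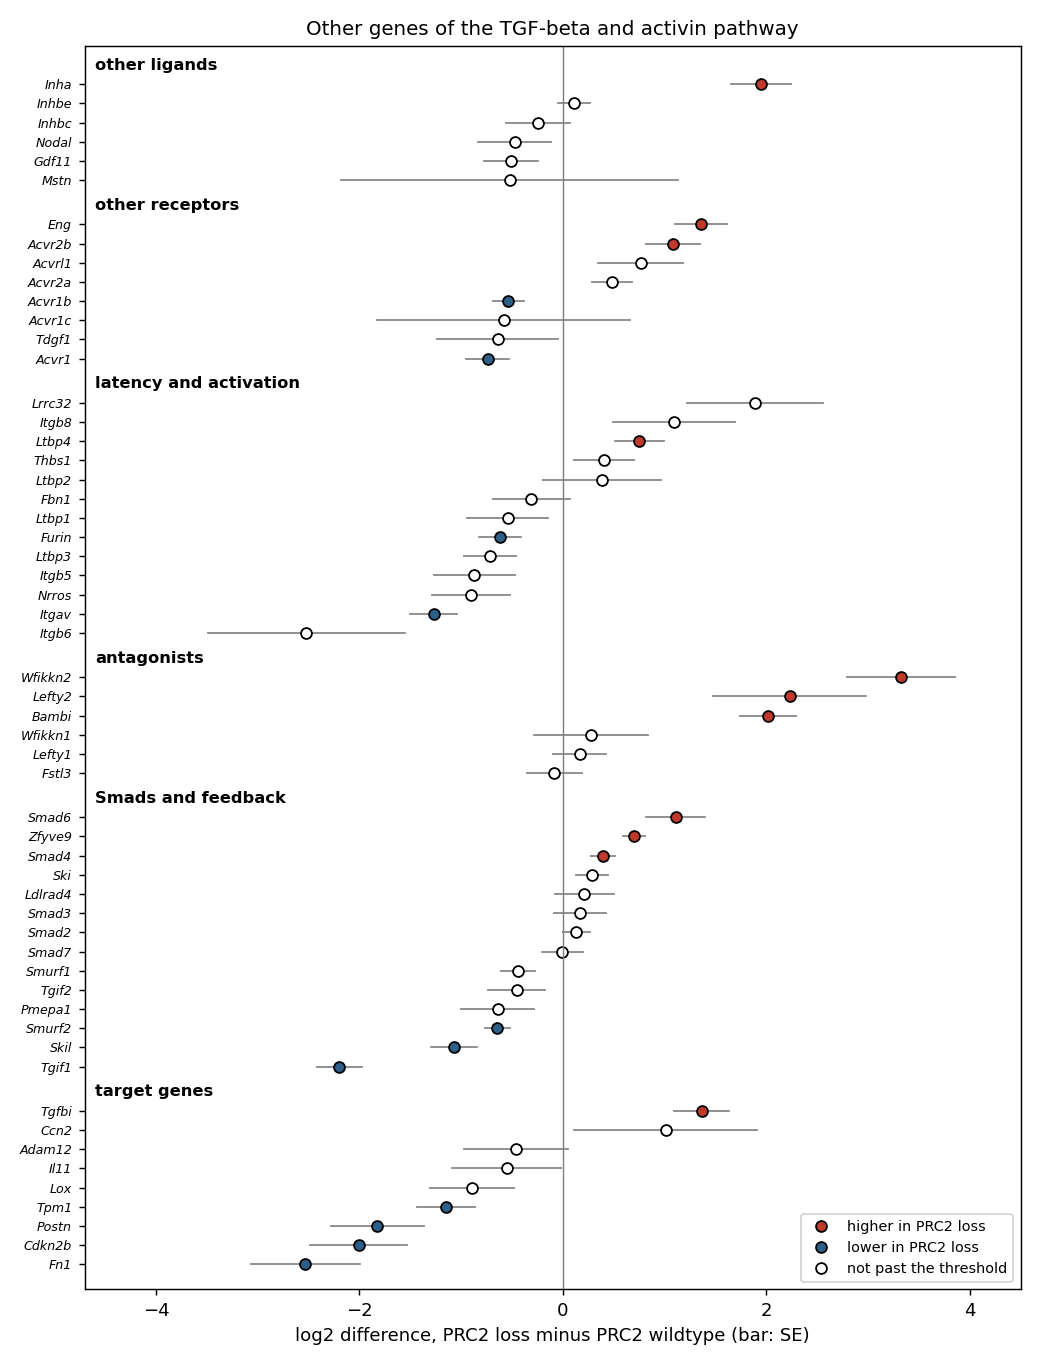
Log2 difference (PRC2 loss minus PRC2 wildtype) with SE for the other genes of the pathway, grouped by role; red passed the limma threshold as higher in PRC2 loss, blue as lower, and open symbols did not pass. The 9 target genes drawn hold 4 blue and 1 red symbol, and antagonists 3 red and no blue.

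In mm10 coordinates (GENCODE M21), the genes that passed lie on chromosome 13 from 16011851 to 16031621 (Inhba), chromosome 1 from 119415465 to 119422248 (Inhbb), chromosome 9 from 116084293 to 116175360 (Tgfbr2) and chromosome 5 from 107106570 to 107289629 (Tgfbr3). The ligand genes lie on chromosome 7 from 25687002 to 25705077 (Tgfb1), chromosome 1 from 186622792 to 186705989 (Tgfb2) and chromosome 12 from 86056745 to 86079041 (Tgfb3), Tgfbr1 on chromosome 4 from 47353222 to 47414931 and Fst on chromosome 13 from 114452290 to 114458951. All are protein-coding. Each gene symbol has a single deposited value, so isoforms were not separated, and which exons and isoforms were counted is not stated. The exonic lengths used here are from GENCODE M21 and need not match the exons counted.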

How the data were processed

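The deposited values are gene counts that the authors quantile-normalized and put on a log2 scale, for 20943 symbols in 8 tumors. The submitters' processing notes name Trim Galore, STAR 2.6, Partek 7.0 and mm10; for annotation, counting, strand use and the offset before the log, the sources used here give nothing. Quantile normalization removes library totals, so depth is unknown.

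The 136 genes with the same value in every tumor were not tested. The other 20807 were fitted with limma 3.58.1 (R 4.3.3), two-sided, with variances trended on the mean and Benjamini-Hochberg adjustment over all genes; 0.05 was the threshold and 9578 genes had an unadjusted p below it. In simulated data with independent tumors, the procedure recovered 46% of genes shifted by 1 on the log2 scale. At a shift of 2 it recovered 86%, and at a shift of 4 it recovered 98%. Only a small share of genes, all with means at or above the median of gene means, was shifted there. In the tumors 35.7% of genes passed, so these recovery rates need not hold for them. Tumors that share an animal code were not simulated. Members and lists were chosen with earlier results of these data known. The text names all members, Eed and up to 4 genes of each pathway list (smallest p among those past the threshold, then highest mean). Outside that rule it names Smad2, Smad3, Smad4, Smad6 and Smad7, chosen with their values in view. For each member it also names the 2 nearest profiles among genes with a mean of at least 8.43. Predicted genes (Gm or Rik symbols) and some Rp symbols were passed over there. Of the target genes, 1 is counted in its list but not reported or drawn here. Exonic lengths came from GENCODE M21 and promoters from RefSeq (GRCm38.p6), where 6 of 9 members matched. Fits leaving out an animal code or using sex were added after seeing the data.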

Additional observations from a re-analysis of the deposited data

How the results depend on the processing

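Replicate numbers are shared by the groups but did not pair the tumors: deviations of same-numbered tumors from their group means correlated at -0.16, 0.095 and -0.048. With the replicate number as a block over all 8 tumors 1129 genes were called higher and 774 lower, with 0 and 1 of the members; over tumors 1 to 3 the block gave 1917 and 1579, with 1 and 2 members, and Tgfb2 passed at -0.86. Under both blocks Tgfbr1 turned to -0.042, Tgfbr2 fell short at 0.58 and Tgfbr3 at 1.21; Inhbb missed at 1.65 over all 8 tumors. 

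Animal code as a random block left 0 members higher, with Inhbb at 1.64, Tgfbr2 at 0.77 and Tgfbr3 at 1.15 no longer past the threshold. Averaging tumors by animal code gave 2113 genes higher and 2113 lower and 0 members higher (Inhbb 1.67, Tgfbr2 0.78, Tgfbr3 1.20, none past the threshold). Array weights left 1 member higher (Inhbb 1.29 and Tgfbr3 0.75 missed). Tgfbr2 missed the threshold with pseudocounts of 1 and 16 (0.76 each), without the variance trend (0.76) and with sex as a covariate (0.79). Leaving out genes below the median mean gave 1715 higher and 2533 lower from fewer genes tested.

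Housekeeping centring gave 7863 genes higher and 1532 lower; Tgfbr1 passed at 0.69, and Fst (0.25), Gdf11 (0.11), Mstn (0.10), Nodal (0.15), Acvr1b (0.084), Furin (0.0059), Fbn1 (0.31) and Fstl3 (0.54) changed sign. 

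Leaving out 1 tumor at a time gave 0 to 2 members higher and 1 to 2 lower, with ranges of -1.04 to -0.42 for Tgfb1, -1.14 to -0.60 for Tgfb2, -1.14 to -0.72 for Tgfb3, 1.14 to 1.96 for Inhbb, -0.00348 to 0.20 for Tgfbr1, 0.63 to 0.93 for Tgfbr2, 0.83 to 1.39 for Tgfbr3 and -0.77 to -0.076 for Fst, whose ends are without PRC2 loss tumors 3 and 2. Mstn ranged from -1.25 to 0.61, Fbn1 from -0.52 to 0.10 and Fstl3 from -0.32 to 0.30.

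Without both PNC8 tumors 1 member was higher and 2 lower: Tgfb2 passed at -0.92, Inhbb (1.66) and Tgfbr3 (0.81) missed, and Mstn turned to 1.58. Without both PNC9 tumors 1 was higher and 2 lower: Tgfb3 passed at -1.47, Inhbb (1.20) and Tgfbr2 (0.56) missed, and Tgfbr1 turned to -0.055. Without both PNCE7 tumors 1839 genes were higher and 1615 lower and no member passed, 0 higher and 0 lower: Inhba -4.85, Inhbb 2.55, Tgfbr2 0.69, Tgfbr3 1.68; Fbn1 turned to 0.077 and Fstl3 to 0.22. Without the 2 male tumors 2204 genes were higher and 2419 lower with 1 member higher; Tgfbr2 (0.74) and Tgfbr3 (0.90) missed and Tgfbr1 turned to -0.029. With array weights Fstl3 turned to 0.12. Fewer samples enter these fits; otherwise the cause was not tested. Target genes called lower numbered 1 and 2 under the replicate blocks, 2 without PNCE7 and 2 without the male tumors, against 5. Eed and Tgif1 kept their direction and call in all 25 alternatives. The call was lost in 1 of 25 for Inha, 1 of 24 for Wfikkn2, and 2 of 25 each for Fn1 and Tgfbi.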

Other observations

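Promoter windows of the other matched members differed in composition. The Tgfb1 window held 30 CpG dinucleotides and 6 copies of GGGCGG, of which 5 lay before the start; 88.3% of all windows had fewer CpG. Tgfb2 had 10 CpG dinucleotides, 1 TATAAA beginning at position -31 from the start and 1 CAGACA, and Tgfbr2 had 15 CpG dinucleotides and none of the 4 motifs searched. Tgfbr1 had 2 windows in the table, with 34 and 3 CpG dinucleotides.

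Over all genes, tumors that share an animal code had the highest correlations within their group. These were 0.976 for PNC8 and 0.978 for PNC9, against at most 0.972 for other wildtype pairs. For PNCE7 the value was 0.983, against at most 0.980 for other PRC2 loss pairs. For single members such tumors were not always close. The gap between the 2 PRC2 loss tumors of code PNCE7 was 1.03 for Tgfb1, 1.38 for Fst and 0.25 for Inhba on the log2 scale. Between the wildtype tumors of code PNC8 it was 1.44 for Tgfb2 and 0.91 for Inhba, and between those of code PNC9 0.073 for Tgfb3 and 0.93 for Inhba.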
